A study of Homo sapiens with 79 samples.

Results

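The 30 nucleoporin mRNAs described here were the rows of the deposited gene table that carry the symbols of structural components of the nuclear pore complex, 30 of 48453 genes in all. They comprised 8 mRNAs of the Y complex, 5 of the inner ring, 4 of the central channel together with NUP98, 7 of the cytoplasmic side, 3 of the nuclear basket and 3 of the pore membrane. Each was followed through formaldehyde RNA immunoprecipitation (fRIP) of 24 proteins, beginning with the fRIP of NUP98, which is itself a nucleoporin. The method fixes intact cells with a low dose of formaldehyde, breaks them by sonication, pulls down 1 protein with its antibody and sequences the RNA that stays attached, next to input RNA of the lysate. All libraries were of untreated K562, an established human erythroleukemia line. Of the 70 fRIP libraries, 22 proteins had 3 each, and EZH2 and STAG2 had 2 each. The 9 input libraries came in 3 sets of 3. The panel held RNA binding proteins (ADAR, HNRNPH1, HNRNPU, HUR, IMP1, PABP) and chromatin-associated proteins, and the study carried STAG2 along although its antibody recovered little RNA. By the study's account the replicates of a protein came from different dates and different lysates.

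The nuclear pore complex is a ring of repeated protein modules that spans the nuclear envelope and carries proteins and RNA between nucleus and cytoplasm. The Y complex and the inner ring form its scaffold, nucleoporins rich in phenylalanine-glycine (FG) repeats fill its channel, filaments reach into the cytoplasm, and a basket hangs into the nucleus. NUP98 is an FG nucleoporin that binds the mRNA export factor RAE1, also occurs away from the pore inside the nucleus, and is known for its gene fusions in leukemia. Its gene makes a long mRNA for a precursor that cleaves itself into NUP98 and NUP96, a Y complex subunit, and shorter mRNAs for NUP98 alone.

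NUP98 lies at chr11:3692313-3819022 on the minus strand of hg19, and 3 of its isoforms are shown by bases at which they part, because the results below turn on them. The first is ENST00000324932 (6726 nt, 33 exons), a long form that is called the NUP98-NUP96 mRNA below. Its end of exon 20 (chr11:3733794-3733805) is spliced to the start of exon 21 (chr11:3727840-3727857). The second is ENST00000397007 (3987 nt, 20 exons), in which exon 20 reads on into the intron (chr11:3733776-3733793) and a stop codon follows. The third is ENST00000461047 (545 nt, 2 exons), annotated as a retained intron, in which the bases that end exon 10 of ENST00000397007 (chr11:3781718-3781729) are followed by its intron (chr11:3781700-3781717). Exon 10 is shorter in ENST00000324932 (chr11:3781769-3781856, 88 nt) than in ENST00000397007 (chr11:3781718-3781856, 139 nt). The first isoform thus parts from both others there as well. Lower case marks the last 12 bases of the named exon and capitals the 18 bases that follow it in each isoform, read 5′ to 3′ from the reference genome.
NUP98-NUP96: cctccacctcagAGCCAGAGCCCAGAGGTG
NUP98: cctccacctcagGTAGAGAAAAAAGGACAG
NUP98-208: cttctaattttgGTACATATAAAAAGCAGG

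Depth, inferred from the spacing of the lowest values, was 1.99 to 60.4 M (mega) fragments over the fRIP libraries and 12.2 to 31.4 M over the inputs. The 3 NUP98 libraries had 11.9 to 13.6 M and the ADAR libraries, the shallowest, 1.99 to 2.36 M. The inputs carried erythroid markers (HBG2 at a median of 944 FPKM, GATA1 at 85.3 FPKM) and little of the markers of other cells that are given here (medians of 1.39 FPKM for the myeloid ITGAM, 0.357 FPKM for COL1A1 of fibroblasts and 0 for the keratin KRT5), which matches the label. FPKM counts fragments per kilobase of transcript and mega fragments sequenced, so genes of different length are on 1 scale. It is relative to the total of each library, so comparisons between libraries also depend on what else each library holds. Values with libraries centred on their gene medians are therefore given as an alternative. One library stood apart: replicate 3 of input set 2 was the highest of the 9 inputs by an outlying margin for 7 of the 30 members, and the value of NUP98 and the 1 call that ended without it are given below. For how many of all genes it did so was not taken.

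All 30 nucleoporin mRNAs were measured in every input and passed the minimum of 1 FPKM in at least 2 libraries. NUP214, which holds mRNA export factors on the cytoplasmic face, had the highest input level at 169 ± 43.1 FPKM (SD, n = 9), followed by NUP107 of the Y complex at 119 ± 15.1 FPKM. TPR, the coiled-coil filament of the basket, stood at 111 ± 10.0 FPKM, the inner ring scaffold NUP205 at 105 ± 16.7 FPKM and SEC13, which the Y complex shares with the coat of secretory vesicles, at 102 ± 13.7 FPKM. NUP98 was the sixth in this order at 87.9 ± 8.95 FPKM. The lowest levels were those of the membrane nucleoporins POM121C, 11.6 ± 3.25 FPKM, and POM121, 5.18 ± 1.21 FPKM. Of the 29 pairs of neighbours in the order, 1 did not overlap, NUP35 (21.7 to 34.5 FPKM) over POM121C (7.45 to 16.9 FPKM), and the other neighbours shared a range over the 9 inputs.

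The question put to the NUP98 fRIP was which nucleoporin mRNAs came down with a nucleoporin. NUP98 mRNA itself was the one that did. It stood at 191, 239 and 292 FPKM in the 3 NUP98 fRIP libraries, and in the inputs at 74.5 FPKM at the lowest, 87.5 FPKM at the median and 106 FPKM at the highest. Every NUP98 fRIP library therefore lay above every input, and the lowest fRIP library was well clear of the highest input. The log2 fold change was 1.43 (SE 0.15, adjusted p = 7.26e-11), a 2.69-fold rise on the scale of FPKM + 1. A two-sided exact permutation test of 3 against 9 libraries gave p = 0.00455, the smallest value it can give. Among the 25442 genes tested, 67 (0.263%) were enriched in NUP98 fRIP, which here means over 2-fold in size with an adjusted p below 0.05, and likewise for depleted. NUP98 ranked 30 of 25442 by fold change, with 10 protein coding genes above it. Without replicate 3 of input set 2 the value was 1.46. In a lysate of many cells, more bound copies per cell and more cells with bound copies cannot be told apart.

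Against the mean of the other 23 fRIPs, a comparison that uses no input, NUP98 mRNA was higher in NUP98 fRIP by 1.31 on the log2 scale (SE 0.13, adjusted p = 6.53e-11). It was the sole member called higher of the 30, where 0.240% of all genes were. No member was called lower, where 2.82% of all genes and 1.17% of protein coding genes were. The other fRIPs were not alike for this mRNA. In ADAR fRIP, the fRIP of the adenosine deaminase that edits double-stranded RNA, NUP98 mRNA stood at 219, 255 and 272 FPKM (1.49, SE 0.15, adjusted p = 9.78e-14). In fRIP of SUZ12, a subunit of the Polycomb complex PRC2, it stood at 188, 205 and 272 FPKM (1.31, SE 0.15, adjusted p = 1.06e-11). Both sets of libraries lay above all inputs and overlapped those of NUP98 fRIP. In the other 21 fRIPs it was called in neither direction, from 0.41 in fRIP of the chromatin remodeller CHD7 to −0.95 in fRIP of PABP, the poly(A) binding protein. Alternatives passed in 3 of these. The value in HNRNPH1 fRIP was −1.32 with centred libraries and −1.02 on coding isoforms alone, that in PABP fRIP −1.08 on coding isoforms, and that in PCAF fRIP 1.00 with centred libraries.

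**Figure D1:**
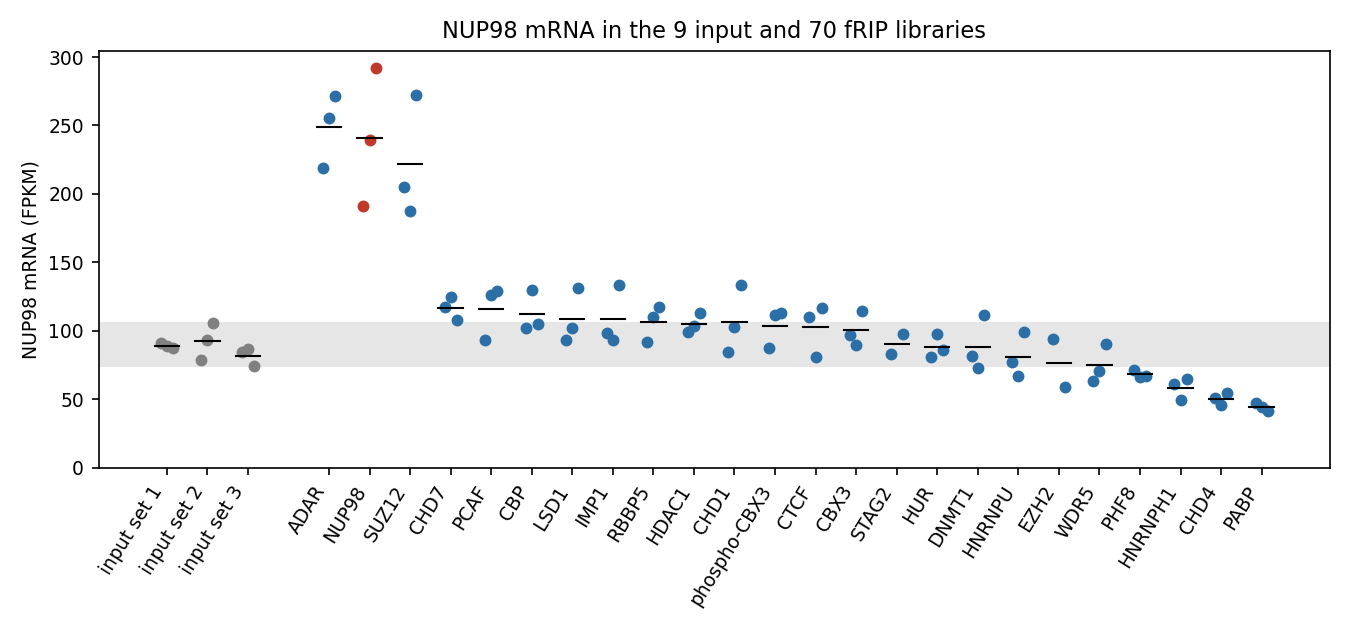
FPKM of NUP98 mRNA (vertical axis) in each of the 9 input libraries (grey points, by input set) and the 70 fRIP libraries (blue, NUP98 fRIP in red), with a bar at the mean of each group and a grey band over the range of the inputs. The libraries of ADAR, NUP98 and SUZ12 fRIP, from 188 to 292 FPKM, sit above the band of 74.5 to 106 FPKM, and those of PABP fRIP, 41.9 to 47.6 FPKM, below it.

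The remaining 29 nucleoporin mRNAs were neither enriched nor depleted in NUP98 fRIP, where 5.11% of all genes and 1.24% of protein coding genes were depleted. The members had a median log2 fold change of −0.00 and all genes one of −0.11. After centring of the libraries on their gene medians, these values became 0.41 and 0.30, NUP98 rose to 1.84, and still no other member passed, where 2.79% of all genes were enriched and 1.77% depleted. At an adjusted p under 0.05 whatever the fold, 3 members were higher and 2 lower, against 5.40% and 14.8% of all genes. The 2 others that were higher were NUP50, a basket protein that helps importins let go of their cargo, and POM121. NUP50 stood at 27.7, 33.9 and 47.3 FPKM against inputs of 22.2 to 33.6 FPKM (0.45, SE 0.15, adjusted p = 0.0227), and POM121 at 6.61, 6.66 and 9.21 FPKM against 4.13 to 8.10 FPKM (0.47, SE 0.17, adjusted p = 0.0367). Both overlapped with the inputs, of which replicate 3 of input set 2 was the highest for both. Each NUP98 fRIP library was nevertheless above the input of set 2 with the same number, 3 of 3 pairs for both mRNAs. With that set and a replicate block NUP50 was at 0.37 (adjusted p = 0.0390) and POM121 at 0.28 (adjusted p = 0.158).

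TPR and the transmembrane nucleoporin NUP210 were the 2 that were lower. TPR stood at 68.8, 73.9 and 74.0 FPKM, below all inputs at 90.6 to 120 FPKM (−0.61, SE 0.13, adjusted p = 0.000232). NUP210 stood at 38.3, 44.6 and 56.7 FPKM, below all inputs at 59.3 to 78.2 FPKM (−0.56, SE 0.13, adjusted p = 0.000839). After centring their values were −0.20 and −0.15. Against the other 23 fRIPs TPR was lower by 0.67 on the log2 scale (adjusted p = 1.11e-05), while the value for NUP210, −0.29, had an adjusted p of 0.0548.

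RAE1, the partner that NUP98 binds, stood at 28.9, 39.8 and 41.3 FPKM in NUP98 fRIP and between 20.4 and 45.3 FPKM in the inputs, with an input median of 29.5 FPKM. The groups overlapped, and the log2 fold change of 0.29 (SE 0.17) did not pass (adjusted p = 0.264, two-sided exact permutation p = 0.2). Against input set 2 alone, the set that belongs to the NUP98 fRIP by the deposited comparisons, it was 0.01.

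**Figure D2:**
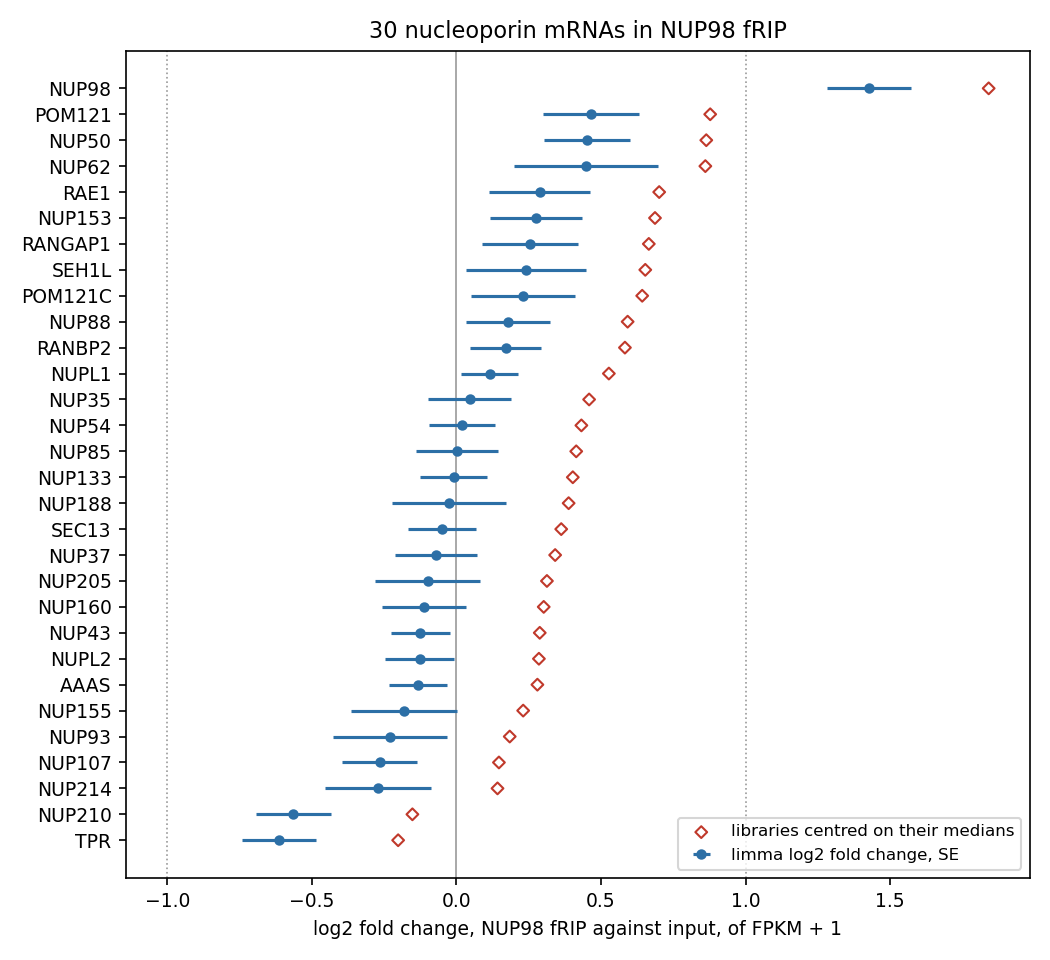
Log2 fold change of the 30 nucleoporin mRNAs in NUP98 fRIP against input (horizontal axis, of FPKM + 1), with points and bars for the limma estimate and its SE and open diamonds for the estimate with libraries centred on their medians. Dotted lines mark changes of 2-fold, and NUP98, at 1.43, is the one member beyond them in either version.

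The rise of NUP98 mRNA was seen in its coding isoforms. Isoform values are the authors' estimates from short reads, so reads of shared exons were divided among isoforms by a model, and the isoforms were looked at after the gene values were seen. Of the 20 isoforms of NUP98 tested, 5 were enriched in NUP98 fRIP (4 coding and 1 marked for nonsense-mediated decay) and 3 depleted, where 1.20% and 3.93% of all isoforms were. The NUP98-NUP96 mRNA ENST00000324932, whose junction is printed above, stood at 74.5, 74.8 and 97.5 FPKM against inputs of 25.8 to 33.4 FPKM (1.49, SE 0.10, adjusted p = 7.13e-17). The short ENST00000397007 stood at 40.3, 70.4 and 82.3 FPKM against 10.7 to 20.7 FPKM (2.07, SE 0.30, adjusted p = 6.56e-07). A further coding isoform, ENST00000355260 (6731 nt, 32 exons), stood at 41.6, 44.8 and 47.1 FPKM against 6.52 to 11.7 FPKM (2.22, SE 0.24). All 3 lay above every input.

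The 3 depleted isoforms of NUP98 were all annotated as retained introns. The most abundant of them, ENST00000461047, stood at 3.23, 3.81 and 4.50 FPKM in NUP98 fRIP, below all inputs at 6.51 to 13.0 FPKM (−1.03, SE 0.21, adjusted p = 0.000331). In ADAR fRIP the same retained intron isoform stood at 75.4, 95.0 and 104 FPKM (3.22, SE 0.21, adjusted p = 4.67e-20), while the NUP98-NUP96 mRNA stood at 30.1, 32.7 and 35.3 FPKM (0.19, adjusted p = 0.134). Among all isoforms 17.3% were enriched and 9.06% depleted in ADAR fRIP. In SUZ12 fRIP the NUP98-NUP96 mRNA stood at 20.8, 21.6 and 26.6 FPKM (−0.31), ENST00000397007 at 40.6, 51.9 and 73.7 FPKM (1.87), ENST00000355260 at 38.1, 40.2 and 48.3 FPKM (2.14) and the retained intron isoform at 15.5, 20.4 and 28.3 FPKM (1.15). ENST00000397007 and ENST00000355260 were thus enriched in both NUP98 and SUZ12 fRIP, and the retained intron isoform in both ADAR and SUZ12 fRIP. Of these 3 fRIPs, ENST00000324932 was enriched in that of NUP98. ENST00000355260 (6731 nt) is as long a coding isoform as ENST00000324932 (6726 nt), so a long coding isoform was enriched in SUZ12 fRIP too. The fRIPs were not tested against each other. On coding isoforms alone the gene's log2 fold change was 1.71 in NUP98 fRIP, 1.27 in SUZ12 fRIP and 0.02 in ADAR fRIP, and after centring of the gene values 1.84, 1.29 and 0.51.

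The share of retained intron isoforms put this on 1 scale. Of the FPKM of NUP98 in retained intron and coding isoforms together, the inputs held 17.6% to 28.7% in retained introns, with a median of 21.3%. The NUP98 fRIP libraries held 3.53%, 3.72% and 5.29%, and the ADAR fRIP libraries 71.5% to 74.1%. Neither group overlapped with the inputs. The log2 difference of retained intron minus coding fell by 2.60 in NUP98 fRIP (SE 0.24, adjusted p = 1.34e-12) and rose by 3.18 in ADAR fRIP (SE 0.24, adjusted p = 2.37e-18). NUP98 fRIP was not alone at the low end. The difference was −2.70 in fRIP of IMP1, a cytoplasmic mRNA binding protein, −2.46 in fRIP of the histone demethylase LSD1 and −2.13 in fRIP of the acetyltransferase PCAF. In fRIP of HNRNPH1, a splicing regulator, it was 1.48, and in SUZ12 fRIP 0.14.

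**Figure D3:**
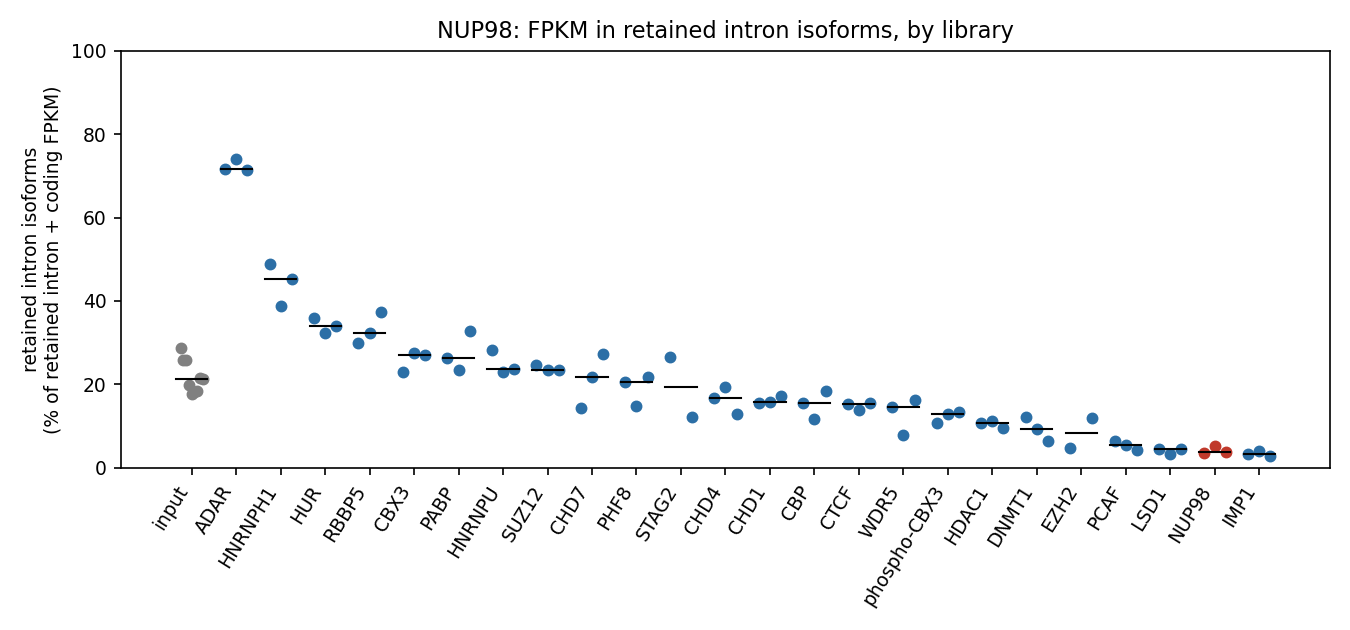
Share of NUP98 FPKM in retained intron isoforms, as a percentage of retained intron plus coding FPKM (vertical axis), for each of the 9 input libraries (grey) and 70 fRIP libraries (blue, NUP98 fRIP in red), with a bar at each group's median. ADAR fRIP sits at 71.5% to 74.1%, the inputs at 17.6% to 28.7% and NUP98 fRIP at 3.53% to 5.29%, near the fRIPs of IMP1, LSD1 and PCAF.

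The same measure could be taken for 24 of the 30 members. In NUP98 fRIP, 11 of the 24 had a lower share of retained introns and none a higher one, where 21.6% and 0.399% of 6510 genes did. Their median was −0.95 and that of all genes −0.54. Besides NUP98 the lowest were NUP214 (−1.70, adjusted p = 1.50e-08) and NUP50 (−1.48, adjusted p = 4.58e-06). Of the 344 member isoforms tested, 25 were depleted in NUP98 fRIP and 8 enriched, where 3.93% and 1.20% of all isoforms were. Of the 25, 20 were among the 95 retained introns tested, and 7.46% of all retained intron isoforms were depleted. Of the 8, 6 were among the 139 coding isoforms tested, and 1.61% of all coding isoforms were enriched. The panel held fRIPs on both sides of zero. The shift to lower shares was found in more members in PCAF fRIP, with 19 lower (36.9% of genes), in LSD1 fRIP with 14 (27.9%) and in IMP1 fRIP with 13 (39.5%). CHD4 fRIP had 16 lower and 3 higher (47.7% and 2.12% of genes), and PABP fRIP 16 and 5 (54.3% and 4.98%). EZH2 and WDR5 fRIP had 9 lower each (31.8% and 27.3%). On the other side, in ADAR fRIP 16 were higher and 1 lower (44.7% and 4.53% of genes), in SUZ12 fRIP 17 and 1 (47.0% and 3.46%), and in HNRNPH1 fRIP 21 and 0 (60.0% and 2.81%). The median differences were 1.88, 1.44 and 1.94 for the members and 0.87, 0.91 and 1.35 for all genes. Higher shares were also found for 16 members in PHF8 fRIP (32.3% of genes), 13 in CBX3 fRIP (39.2%), 11 in HNRNPU fRIP (36.4%), 9 in HUR fRIP (23.7%) and 8 in RBBP5 fRIP (15.8%).

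Over the whole panel there were 720 pairs of a nucleoporin mRNA and a fRIP. Of these 32 were enriched and 23 depleted, and over all genes 6.90% of such pairs were enriched and 5.52% depleted. The 55 called pairs fell in 14 of the 24 fRIPs, and in each of them the fRIP libraries lay wholly outside the range of the inputs. The 24 comparisons share the input libraries. Shares of all genes take in noncoding genes, whereas the members are mRNAs, so shares of protein coding genes are added for several fRIPs. With the input set that the deposited comparisons pair with each fRIP, 29 of the 32 and 19 of the 23 were called again, with centred libraries 25 and 14, and on coding isoforms alone 19 and 19. The 7 that were lost with the paired input set were NUP107 and RANGAP1 in CBP fRIP, POM121C in CBX3 and in PABP fRIP, NUP107 in HNRNPH1 fRIP, NUP210 in PCAF fRIP and NUP62 in SUZ12 fRIP, all with a change of the same sign that was under 2-fold.

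**Figure D4:**
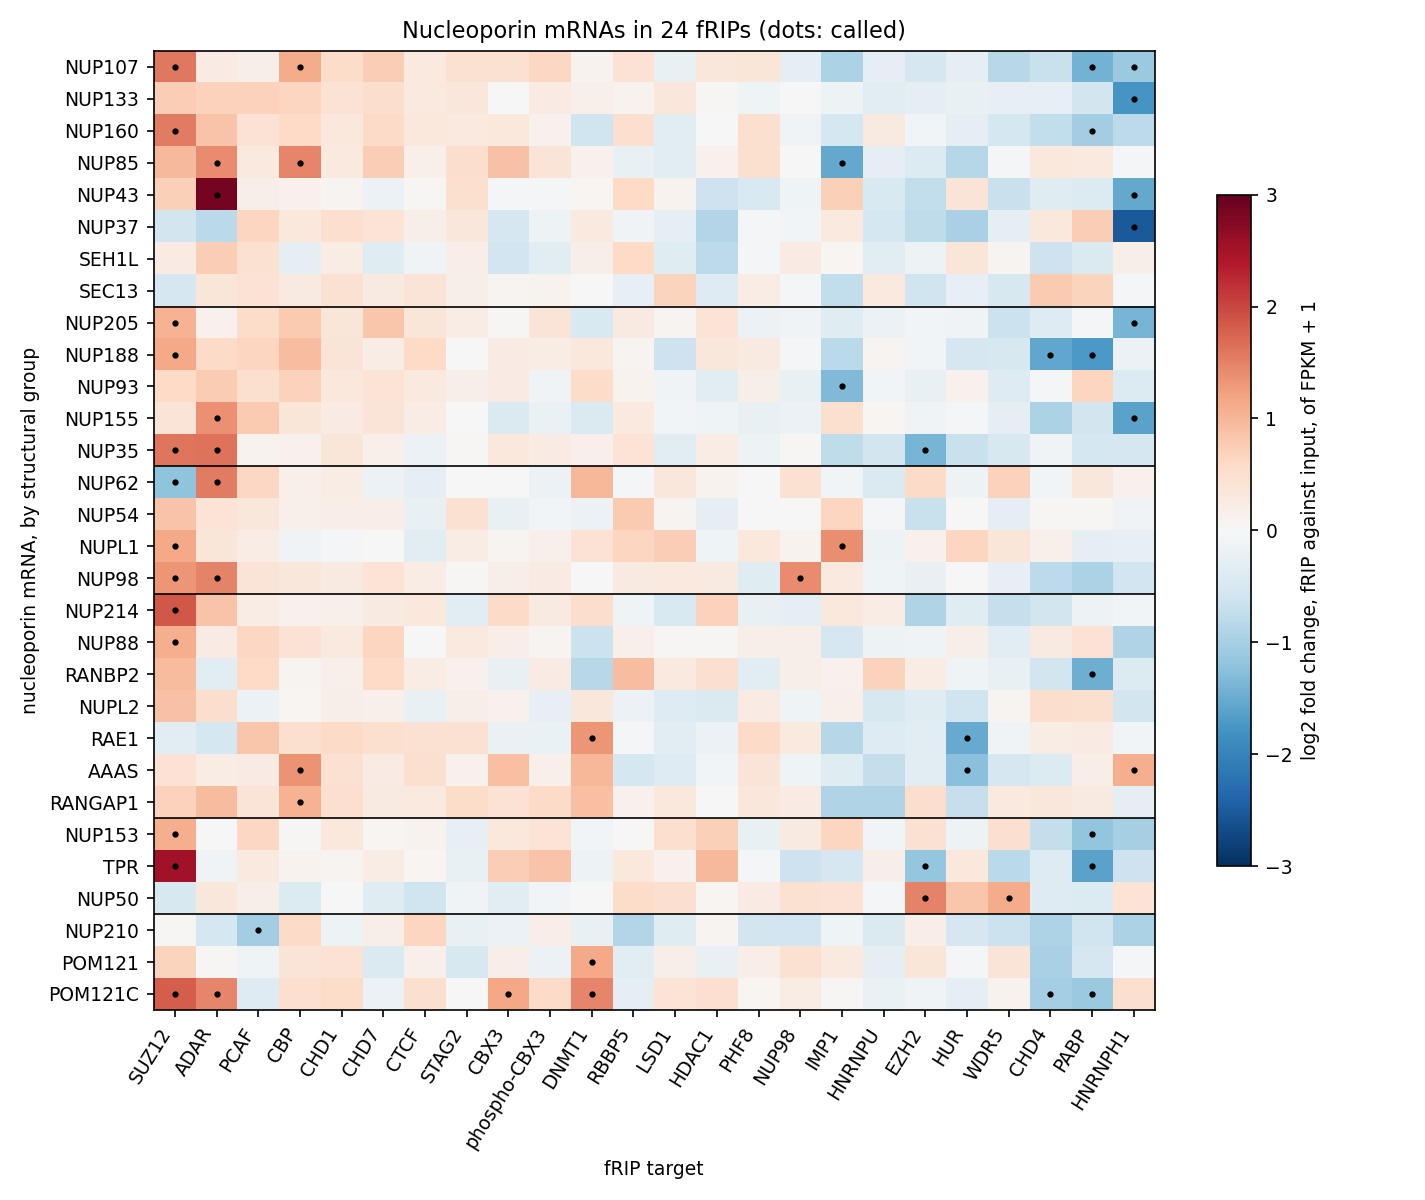
Log2 fold change against input (colour, of FPKM + 1) for the 30 nucleoporin mRNAs (rows, by structural group from the Y complex at the top to the membrane at the bottom) in the 24 fRIPs (columns, ordered by the members' median), with dots on the 55 called pairs. SUZ12 fRIP has the most dots, 13, and red shades in most rows, and HNRNPH1 and PABP fRIP hold most of the blue dots.

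SUZ12 fRIP was enriched for 12 of the 30 and depleted of 1, where 15.3% and 8.60% of all genes were called. No other fRIP enriched as many, but after centring PCAF fRIP did, with 15, while SUZ12 fRIP again enriched 12 (14.8% of all genes). The members' median log2 fold change was 0.87 and that of all genes 0.01. TPR stood at 570, 609 and 755 FPKM against inputs of 90.6 to 120 FPKM (2.52, SE 0.13, adjusted p = 3.17e-25), above all inputs by several-fold. NUP214 rose by 1.86 and POM121C by 1.82, the inner ring protein NUP35 by 1.60, and NUP107 and NUP160 of the Y complex by 1.59 and 1.56. The others were NUP98, NUP188, NUPL1, NUP88, NUP153 and NUP205, from 1.31 down to 1.04, and without replicate 3 NUP188, NUP153 and NUP205 fell under 2-fold and were not called. The depleted member was NUP62, the FG protein of the channel, at no more than 18.7 FPKM in the 3 libraries against 22.6 to 62.5 FPKM in the inputs (−1.20, adjusted p = 3.98e-05). Against its own input set NUP62 was at −0.86 and was not called. On coding isoforms alone 7 members were enriched and 3 depleted, where 15.3% and 15.8% of genes were. EZH2, the catalytic subunit of PRC2, was enriched for 1 member (10.5% of all genes) and depleted of 2 (9.13%). NUP50 stood at 61.6 and 88.8 FPKM in EZH2 fRIP (1.49, adjusted p = 1.21e-10), NUP35 at 8.75 and 9.17 FPKM (−1.39) and TPR at 40.9 and 59.8 FPKM (−1.15, under 2-fold and not called without replicate 2), so that TPR and NUP35, which rose in SUZ12 fRIP, lay below all inputs in EZH2 fRIP.

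ADAR fRIP was enriched for 7 members and depleted of none, where 26.6% of all genes and 18.8% of protein coding genes were enriched. NUP43, a Y complex subunit shaped as a propeller, had the highest value of any called pair. It stood at 441, 507 and 555 FPKM against inputs of 60.2 FPKM at the lowest, 67.6 FPKM at the median and 74.6 FPKM at the highest (2.88, SE 0.10, adjusted p = 5.64e-33), a 7.37-fold rise. The others were NUP35 (1.63), NUP62 (1.56), NUP98 (1.49), POM121C (1.48), NUP85 (1.42) and NUP155 (1.36). Centring on library medians moved the median of all genes in this fRIP from 0.29 to −0.69 and that of the members from 0.47 to −0.51, and NUP43, at 1.90, was then the one member enriched and 5 were depleted (11.6% and 35.2% of all genes). On coding isoforms NUP43 was at 3.69, while NUP35 and NUP62 turned to −0.13 and −0.19.

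HNRNPH1 fRIP was enriched for 1 member and depleted of 6, where 24.5% and 7.90% of all genes were called. Of protein coding genes, 21.1% and 11.6% were. NUP37 of the Y complex had the lowest value of any called pair, with 8.17, 9.38 and 10.2 FPKM against inputs of 43.9 FPKM at the lowest, 61.8 FPKM at the median and 68.9 FPKM at the highest (−2.53, SE 0.14, adjusted p = 3.00e-23). NUP133 (−1.76), NUP43 (−1.54) and NUP107 (−1.12) of the Y complex and NUP155 (−1.61) and NUP205 (−1.40) of the inner ring were the others. AAAS, a propeller protein of the cytoplasmic face, stood at 74.9, 87.0 and 91.3 FPKM against 35.6 to 42.8 FPKM (1.10, adjusted p = 1.89e-14) at the level of the gene, and at −2.18 on coding isoforms alone. The members' median was −0.40 and that of all genes 0.34, and after centring 17 members were depleted (22.1% of all genes).

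PABP fRIP was depleted of 7 members and enriched for none, where 14.7% of all genes and 10.5% of protein coding genes were depleted. NUP188 fell by 1.73 and TPR by 1.60, RANBP2, the giant protein of the cytoplasmic filaments, by 1.46, NUP107 by 1.42, NUP153 by 1.19, POM121C by 1.11 and NUP160 by 1.04, the last under 2-fold and not called without replicate 3. The median of all genes there moved from −0.15 to 0.35 on centring, after which 3 members were enriched and 2 depleted (20.9% and 6.93% of all genes). Over the 30 members the log2 fold change in PABP fRIP ran against the number of exons (Spearman's rho −0.51, as a description over 30 genes of the same libraries) and against transcript length (−0.46). Over 13575 genes these were −0.27 and −0.43.

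Among the other chromatin-associated proteins, fRIP of the acetyltransferase CBP was enriched for 4 members (9.08% of all genes and 13.5% of protein coding genes). NUP85 stood there at 171, 183 and 188 FPKM against inputs of 53.1 to 85.5 FPKM (1.48, adjusted p = 2.42e-13). AAAS (1.36), NUP107 (1.12) and RANGAP1 (1.03) followed. RANGAP1, which switches off the GTPase RAN at the pore, was the smallest enrichment called, with 67.5, 77.3 and 83.3 FPKM against inputs of 28.8 FPKM at the lowest, 40.1 FPKM at the median and 47.3 FPKM at the highest, and it was at 0.99 and not called without replicate 2 of input set 1. The fRIP of the DNA methyltransferase DNMT1 was enriched for 3 members (9.56% of all genes and 13.1% of protein coding genes). These were POM121C (1.47), POM121 (1.14) and RAE1, which stood at 61.9, 66.9 and 102 FPKM against 20.4 to 45.3 FPKM (1.32, adjusted p = 5.26e-09). POM121 and POM121C are near-identical copies, 76.2% and 73.1% of whose stretches of 31 bases occur in other genes, so reads may have been divided between them. Such stretches made up 42.4% of NUP88, 33.3% of NUP62, 32.9% of RANBP2 and 21.3% of NUP50, with NUPL2 between NUP88 and NUP62, so that the values of these members are less certain too. POM121C was also the 1 member enriched in fRIP of the heterochromatin protein CBX3 (1.16, 7.45% of all genes). NUP50 was the 1 member enriched in fRIP of WDR5, a subunit of histone methyltransferases, with 44.7, 51.3 and 77.2 FPKM against 22.2 to 33.6 FPKM (1.10, 3.90%), and was under 2-fold and not called without replicate 3.

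Depletion was found in fRIP of the remodeller CHD4 for 2 members (9.79% of all genes and 4.75% of protein coding genes), NUP188 at 19.1 FPKM at the lowest and a median of 21.1 FPKM against 51.6 to 90.0 FPKM (−1.55, adjusted p = 2.44e-09) and POM121C at 4.82, 4.90 and 5.43 FPKM against inputs of 7.45 FPKM at the lowest, 10.4 FPKM at the median and 16.9 FPKM at the highest (−1.02). The latter was the smallest depletion called, and without replicate 3 of input set 2 it was −0.95 and not called. PCAF fRIP was depleted of NUP210 alone (−1.03, 8.54% of all genes), which was under 2-fold without replicate 3, but centring moved the median of all genes in this fRIP from −0.16 to 0.46 and then called 15 members enriched (11.8% of all genes).

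Of the other RNA binding proteins, HUR, which binds AU-rich elements, was depleted of 2 members (6.93% of all genes). RAE1 stood at 8.50, 10.4 and 10.5 FPKM there against 20.4 to 45.3 FPKM (−1.50, adjusted p = 1.59e-10), and AAAS was at −1.26. IMP1 fRIP was enriched for 1 member (4.23%) and depleted of 2 (10.5%). The enriched one was NUPL1, an FG protein of the channel, at 107, 132 and 132 FPKM against inputs of 37.9 to 51.6 FPKM (1.40, SE 0.10, adjusted p = 6.74e-18), and the depleted ones were NUP85 (−1.53) and NUP93 (−1.32), the linker of the inner ring. RAE1 and AAAS were thus each enriched in one fRIP or more and depleted in another. The fRIPs of CHD1, CHD7, CTCF, HDAC1, HNRNPU, LSD1, PHF8, RBBP5, STAG2 and phospho-CBX3 called no member in either direction, although after centring 8 members were depleted in HNRNPU fRIP (13.7% of all genes), 2 in HDAC1 fRIP (9.96%) and 1 in RBBP5 fRIP (1.76%), and 2 were enriched in LSD1 fRIP (4.76%).

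By structural group, where 6.90% of all gene and fRIP pairs were enriched and 5.52% depleted, the 192 pairs of the Y complex held 6 enriched (3.12%) and 7 depleted (3.65%), with NUP107 called in 4 fRIPs and SEH1L and SEC13 in none. The 120 pairs of the inner ring held 5 and 6 (4.17% and 5.0%), with NUP188 and NUP35 called in 3 fRIPs each and NUP93 in 1. The 96 pairs of the central channel and NUP98 held 6 and 1 (6.25% and 1.04%), with NUP98 called in 3 and NUP54 in none. On the cytoplasmic side, 168 pairs held 6 and 3 (3.57% and 1.79%), with AAAS called in 3 and NUPL2 in none. The 72 pairs of the basket held 4 and 3 (5.56% and 4.17%), with TPR called in 3 and NUP153 and NUP50 in 2 each. The 72 pairs of the membrane nucleoporins held 5 and 3 (6.94% and 4.17%), and POM121C was called in 6 fRIPs, the most of any member, with NUP210 and POM121 in 1 each. In all, 26 members were called in at least 1 fRIP, 21 were enriched somewhere, 19 depleted somewhere and 14 both. The matching shares of all genes were not taken, so these counts cannot be set against genes in general.

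The call of a gene and that of its most abundant coding isoform often parted. Among all isoforms 7.29% of pairs with a fRIP were enriched and 5.47% depleted. Of the 32 enriched pairs, the main coding isoform was enriched in 14, not called in 14 and depleted in 4, and of the 23 depleted pairs it was depleted in 18 and not called in 5. The 4 that turned were NUP85, NUP155 and NUP62 in ADAR fRIP and AAAS in HNRNPH1 fRIP. The main coding isoform of NUP85, ENST00000245544, was at most 0.00853 FPKM in ADAR fRIP and at 14.0 to 28.7 FPKM in the inputs, while its retained intron isoform ENST00000582681 stood at 12.9 to 18.5 FPKM there (2.46). Other coding isoforms of NUP85 rose in ADAR fRIP, ENST00000540768 to 20.2 to 20.7 FPKM from 4.53 to 7.80 FPKM (1.63, adjusted p = 4.01e-12) and ENST00000583569 by 2.08, and the sum of its coding isoforms was at 0.44 and not called. That of AAAS, ENST00000209873, stood at 2.82 to 4.91 FPKM in HNRNPH1 fRIP against 15.4 to 26.2 FPKM (−2.15, adjusted p = 1.72e-16), while the retained intron isoform ENST00000547238 stood at 26.6 to 35.9 FPKM and at most 2.48 FPKM in the inputs (4.39, adjusted p = 7.33e-14). NUP43 in ADAR fRIP was the opposite case. Its main coding isoform ENST00000340413 (3831 nt) stood at 409 to 508 FPKM against 29.2 to 38.3 FPKM (3.72, SE 0.12, adjusted p = 4.35e-35), and ENST00000460354 fell by 1.72. These isoforms were chosen after their values were seen.

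**Figure D5:**
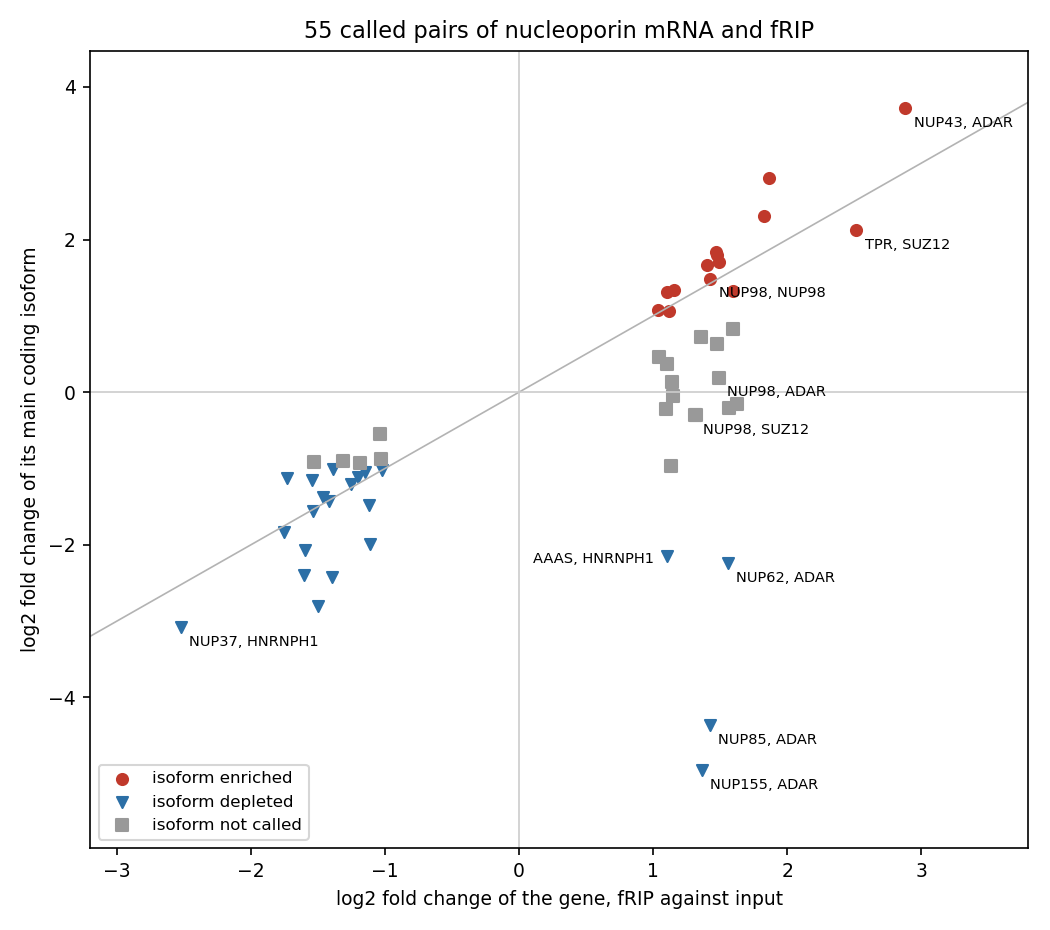
Log2 fold change of the main coding isoform (vertical axis) against that of the gene (horizontal axis), fRIP against input, for the 55 called pairs, with red circles where the isoform was enriched, blue triangles where it was depleted and grey squares where it was not called, and a line of equal values. The 4 blue triangles on the right are enriched genes with a depleted main coding isoform, the lowest being NUP155 and NUP85 in ADAR fRIP, and NUP98 lies near the line in NUP98 fRIP and below it in ADAR and SUZ12 fRIP.

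The mRNAs of the soluble transport machinery and of further pore and envelope proteins were looked at beside the members. Of 50 listed genes 49 were tested, and in NUP98 fRIP limma called none enriched and none depleted, with log2 fold changes from −0.41 to 0.90 and a median of 0.09. At an adjusted p under 0.05 whatever the fold, 5 were higher and 3 lower, where 5.40% and 14.8% of all genes were. NXT1, which pairs with the mRNA export receptor NXF1, was the highest at 0.90 (adjusted p = 0.00413), AHCTF1, a nucleoporin that seeds pore assembly on chromatin, was at 0.82 (adjusted p = 0.00407), and NXF1 was at 0.50 (adjusted p = 0.0365). LMNB2 of the nuclear lamina was at 0.54 and the importin KPNA5 at 0.48. The 3 lower were XPO5, which exports precursors of microRNAs (−0.41, adjusted p = 0.000211), SUN1 of the inner nuclear membrane (−0.41, adjusted p = 0.00291) and THOC1 of the mRNA export complex THO (−0.38, adjusted p = 0.0125). XPO1, the export receptor of proteins and some RNAs, stood at 201, 228 and 230 FPKM against 194 to 241 FPKM (−0.02, adjusted p = 0.952).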

How the data were processed

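RNA of 70 fRIP and 9 input libraries of K562 had been sequenced by the study as paired 31-base reads. The authors aligned reads to hg19 with TopHat and GENCODE v18 and deposited FPKM per gene and isoform from Cuffdiff 2, with Cuffnorm also named. Strand use is not given in the sources used here, so if it was ignored, reads of antisense neighbours such as NUP153-AS1 are part of the member's FPKM. A deposited table of comparisons holds fold changes, test statistics, p-values and q-values, which were not used. Only its FPKM of the input was read, to find the input set of each fRIP.

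The 25442 of 48453 genes that reached 1 FPKM in 2 or more libraries were fitted on log2(FPKM + 1) with limma 3.58.1 (R 4.3.3, intensity trend), 1 mean per protein and 1 for the 9 inputs, with Benjamini-Hochberg adjustment over all genes of a comparison. Fold changes are on the log2(FPKM + 1) scale and understate those of low genes. Calls took an adjusted p under 0.05 and over 2-fold. The same fit was made over 104506 isoforms and, as log2 retained intron FPKM + 1 minus log2 coding FPKM + 1, over 6510 genes. On simulated data for NUP98 fRIP over 25442 genes, 96% of genes changed by 1.5 and 99% of those changed by 3 on the log2 scale were recovered. In the isoform fit these were 75% and 100%, and for retained intron against coding 79% and 100%. Depth came from single isoform genes, with 88.0% to 91.5% of low values within 0.15 of a whole fragment. FPKM give no counting interval. Isoform classes, lengths, coordinates and sequence came from GENCODE v44 lifted to hg19, to which 29 of 30 members matched by identifier and POM121C by its transcripts. NUP98 fRIP and input set 2 shared replicate numbers and deviated together (r = 0.285, 0.132 and 0.457), so a replicate block was fitted too.

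All 30 members could be named. Library values were set for NUP98, RAE1, the called members of NUP98 fRIP and the extremes of the panel, and names for the leading called member of each fRIP and the members with most and fewest calls of each group. Values of other members given per library were chosen after they were seen. Members and lists were chosen with earlier results of these data known. A marker of other cells that was examined is not reported here.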

Additional observations from a re-analysis of the deposited data

Results flagged for a closer look

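In the 9 inputs, replicate 3 of input set 2 was the highest library for 7 of the 30 nucleoporin mRNAs by a margin beyond Dixon's limit for 9 values. Chance flags about 1 independent group in 20, but the 30 mRNAs share the same libraries and all 7 flags fell on 1 of them. The share of all genes flagged in this way was not taken. The gap to the next library, as a share of the range, was 0.712 for NUP35 (34.5 against 25.4 FPKM) and 0.592 for NUP62 (62.5 against 38.9 FPKM). It was 0.583 for POM121 (8.10 against 5.78 FPKM), 0.582 for NUP50 (33.6 against 27.0 FPKM) and 0.565 for NUP153 (78.3 against 59.5 FPKM). It was 0.508 for SEH1L (92.3 against 67.1 FPKM) and 0.494 for SEC13 (132 against 110 FPKM). The library belongs to the set used beside NUP98 fRIP, and NUP98 mRNA was at 1.46 in NUP98 fRIP without it.

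NUP98 mRNA also differed between fRIPs under the same contrast: its level in NUP98 fRIP exceeded the mean of the other 23 by 1.31 on the log2 scale in limma, with 3 of 3 NUP98 libraries above all inputs.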

How the results depend on the processing

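NUP98 mRNA was enriched in NUP98 fRIP under every alternative run, from 1.28 to 1.58 with 1 library left out, 1.43 with a replicate block, 1.36 with input set 2 and the block, 1.84 after centring and 1.71 on coding isoforms. The block changed no call. Counting any fold, NUP98 fRIP had 3 members higher and 2 lower, and 2 and 3 against the other fRIPs, the panel 175 and 135 pairs, and the transport list 5 and 3. Centring gave 53 and 43 pairs and 2 transport mRNAs enriched, input set 1 alone 2 transport mRNAs, and coding isoforms 52 depleted pairs. Shares of all gene and fRIP pairs were not taken under these alternatives, so the panel counts show only how they move with the setting. With libraries left out, the panel gave 29 to 37 enriched and 22 to 29 depleted pairs, and the transport list 0 to 2 enriched, with 2 without NUP98 replicate 1 and 1 each without NUP98 replicate 2 or replicate 3 of input set 2. Of the 54 other called pairs, 22 were called under every alternative. Centring kept 38, coding isoforms 37, the paired input set 47 and dropping replicate 3 of all fRIPs 47. On coding isoforms, an alternative added after seeing the data, as was leaving out the second STAG2 library, which changed none, 3 pairs turned: NUP35 (−0.13) and NUP62 (−0.19) in ADAR fRIP and AAAS (−2.18) in HNRNPH1 fRIP. The cause was not tested. Single inputs ended 2 calls. RANGAP1 mRNA in CBP fRIP was 0.99 without replicate 2 and 0.998 without replicate 3 of input set 1, and POM121C mRNA in CHD4 fRIP was −0.97, −0.996 and −0.98 without replicates 1, 2 and 3 of input set 1 and −0.95 without replicate 3 of input set 2. Leaving out the library of 1 number from every fRIP ended 9 calls: without replicate 2, RANGAP1 mRNA in CBP fRIP (0.97) and TPR mRNA in EZH2 fRIP (−0.88), and without replicate 3, POM121C mRNA in CHD4 fRIP (−0.99), NUP160 mRNA in PABP fRIP (−0.95), NUP210 mRNA in PCAF fRIP (−0.998), NUP205 mRNA in SUZ12 fRIP (0.86), NUP188 mRNA in SUZ12 fRIP (0.998), NUP153 mRNA in SUZ12 fRIP (0.90) and NUP50 mRNA in WDR5 fRIP (0.88). Depth limits ADAR fRIP most, and isoform values rest on a model that divides short reads.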
